A study of Mus musculus with 61 samples.

Results

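Transcripts of 7 genes were followed in single cells of the neonatal mouse ovary. They were the DNA topoisomerases Top1, Top2a, Top2b, Top3a and Top3b and the tyrosyl-DNA phosphodiesterases Tdp1 and Tdp2. The genes were taken by name, and all 7 of 7 had a row among the 23927 gene rows of the count table. The cells came from wild-type CD-1 mice, an outbred stock, at postnatal day 5. Mice had received solvent or the anti-cancer drug doxorubicin by intraperitoneal injection 6 hours before. The unit of the injected amount is unclear in the labels, so no dose is given. All 4 groups share the genotype, stock, age, time and batch label, and each cell was labelled oocyte or granulosa. For doxorubicin oocyte 4 the series text reports that raw data no longer exist, but its column of counts was kept, and the oocyte ratios of all 7 genes keep their sign without it. There were 16 control oocytes, 16 doxorubicin oocytes, 16 control granulosa cells and 13 doxorubicin granulosa cells. Oocytes are the female germ cells, and granulosa cells are the somatic cells that surround them in the follicle. Full-length cDNA of each cell was amplified and sequenced as its own library.

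Topoisomerases relieve the twisting of DNA by cutting it, passing strands and sealing the cut. Type I enzymes cut a single strand, whereas the type II enzymes Top2a and Top2b cut both strands of the helix. During the cut a tyrosine of the enzyme is joined to the DNA end. Doxorubicin inserts into DNA and traps type II enzymes in this state, leaving a protein on a broken end. Tdp2 removes the tyrosine left by a type II enzyme from a 5′ end, and Tdp1 mainly removes that left by Top1 from a 3′ end. Top2a is made mainly in dividing cells and acts in chromosome condensation and segregation, and Top2b is made in dividing and resting cells alike. Oocytes of this age are arrested in meiotic prophase and do not divide.

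The labels tie no cell to an animal. Each group therefore counts as 1 sample, and no difference given here was tested. Levels are counts per 1000000 counts (CPM) of the cell, or of the summed cells of a group. A difference is the log2 ratio of the summed CPM of 2 groups, and its 95% interval covers counting error only. The libraries carry no molecular identifiers, so several reads can stem from 1 molecule, and differences between cells and animals lie outside these intervals. A difference is called past 2-fold where the log2 ratio is at least 1 in size, among genes that reach 5 CPM in at least 1 of the 2 groups. The text also gives the value without single cells where 1 cell decides it. Total counts per cell lay between 6834594 and 31262609. The highest total was that of control oocyte 16, against a median of 10941952 in its group, so this cell weighs most in the sums of control oocytes.

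The labels were set against the summed CPM of 19 oocyte and 19 granulosa markers. Every oocyte had more oocyte than granulosa marker transcripts, and the median oocyte sum was 47099 CPM for control and 35077 CPM for doxorubicin oocytes. Doxorubicin oocytes 9, 11 and 12 stood apart with granulosa marker sums of 4278, 3507 and 2849 CPM, against a median of 129 CPM in their group. Granulosa libraries also held oocyte transcripts, with a median of 1803 CPM in control (475 to 17811) and of 9947 CPM in doxorubicin libraries (399.7 to 46645). The oocyte sum exceeded the granulosa sum in 4 of 16 control and 8 of 13 doxorubicin granulosa libraries. Doxorubicin granulosa cell 15 also held 33378 CPM of blood and immune markers, all of it from haemoglobin genes. Stromal marker sums had medians of 815 CPM in control (1.31 to 13316) and 688 CPM in doxorubicin granulosa libraries (0.375 to 7961). They exceeded the granulosa sum in control granulosa cells 2, 8, 13, 14 and 16 and in doxorubicin granulosa cell 13. Control granulosa cell 16 held the highest Top1 level of all cells (377 CPM). Control granulosa cell 13 held the highest Tdp2 level of its group (108 CPM).

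The promoters of both type II genes were picked for display after their transcripts were seen to differ across granulosa cells. No link between promoter letters and transcript levels was tested. Each sequence runs 5′ to 3′ from 250 bases before to 50 bases after the RefSeq gene start (GRCm38.p6, the assembly of mm10), and capitals mark CCAAT read on either strand (where it lies on the other strand it is printed as ATTGG). Boxes of this kind are common in promoters of cell-cycle genes. The Top2a window lies on the minus strand at chr11:99024140-99024439 and the Top2b window on the plus strand at chr14:16364956-16365255.
Top2a: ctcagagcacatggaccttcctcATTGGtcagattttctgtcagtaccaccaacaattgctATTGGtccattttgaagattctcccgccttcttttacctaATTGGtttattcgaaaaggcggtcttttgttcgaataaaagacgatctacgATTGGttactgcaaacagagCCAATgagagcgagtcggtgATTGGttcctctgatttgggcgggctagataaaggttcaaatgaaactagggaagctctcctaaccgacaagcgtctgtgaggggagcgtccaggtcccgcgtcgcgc
Top2b: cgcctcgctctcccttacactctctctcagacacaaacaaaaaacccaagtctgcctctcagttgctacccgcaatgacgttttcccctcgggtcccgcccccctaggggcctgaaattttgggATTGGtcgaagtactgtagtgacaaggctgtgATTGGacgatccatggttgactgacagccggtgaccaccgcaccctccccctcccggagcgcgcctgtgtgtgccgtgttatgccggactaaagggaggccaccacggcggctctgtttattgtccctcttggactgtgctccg
The Top2a window held 6 CCAAT matches, and 6 or more were found in 0.0799% of 32544 promoter windows of the same length. The Top2b window held 2, and 2 or more were found in 11.6% of windows. TTTGAA on either strand (TTCAAA where it lies on the other strand), the letters of a cell-cycle element that lies near the start of many mitotic genes, occurred 2 times in the Top2a window, 2 or more were found in 2.32% of windows, and it was not matched in the Top2b window. No CCAAT match overlapped a TTTGAA match. G and C made up 47.7% of the Top2a and 58.3% of the Top2b window. Windows for Top1, Top3b and Tdp1 held 0, 1 and 0 CCAAT matches and 0, 0 and 1 TTTGAA matches. The RefSeq table had windows for 5 of the 7 genes, with none for Top3a and Tdp2. These matches describe letters, and binding was not measured.

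All 7 genes were read in nearly every oocyte, but most of them in only some of the granulosa cells. At least 5 reads of Top1, Top2a, Top3b, Tdp1 and Tdp2 were found in 16 of 16 control oocytes (exact binomial interval 79.4% to 100%) and in 16 of 16 doxorubicin oocytes. Top2b was missed in 1 control oocyte and Top3a in 1 doxorubicin oocyte. Among control granulosa cells only Top1 reached 5 reads in all 16, and Top3a did so in 3 of 16 (18.8%, interval 4.05% to 45.6%). Counts for the others in control granulosa cells were 13 cells for Top2b, 10 for Tdp2, 9 for Top2a, 8 for Tdp1 and 7 for Top3b. Of 13 doxorubicin granulosa cells, Top1 reached 5 reads in 13, Top2b in 11, Tdp2 in 9, Tdp1 and Top3b in 8, and Top2a and Top3a in 5. The median oocyte thus had 7 of the 7 genes in both groups, against 4 in control and 6 in doxorubicin granulosa cells. For comparison, the median gene with at least 5 CPM had 5 reads in 100% of control oocytes and in 56.2% of control granulosa cells. Median depths were alike in the 4 groups, with totals of 10941952, 11012307, 11478173 and 10826423 counts.

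**Figure D1:**
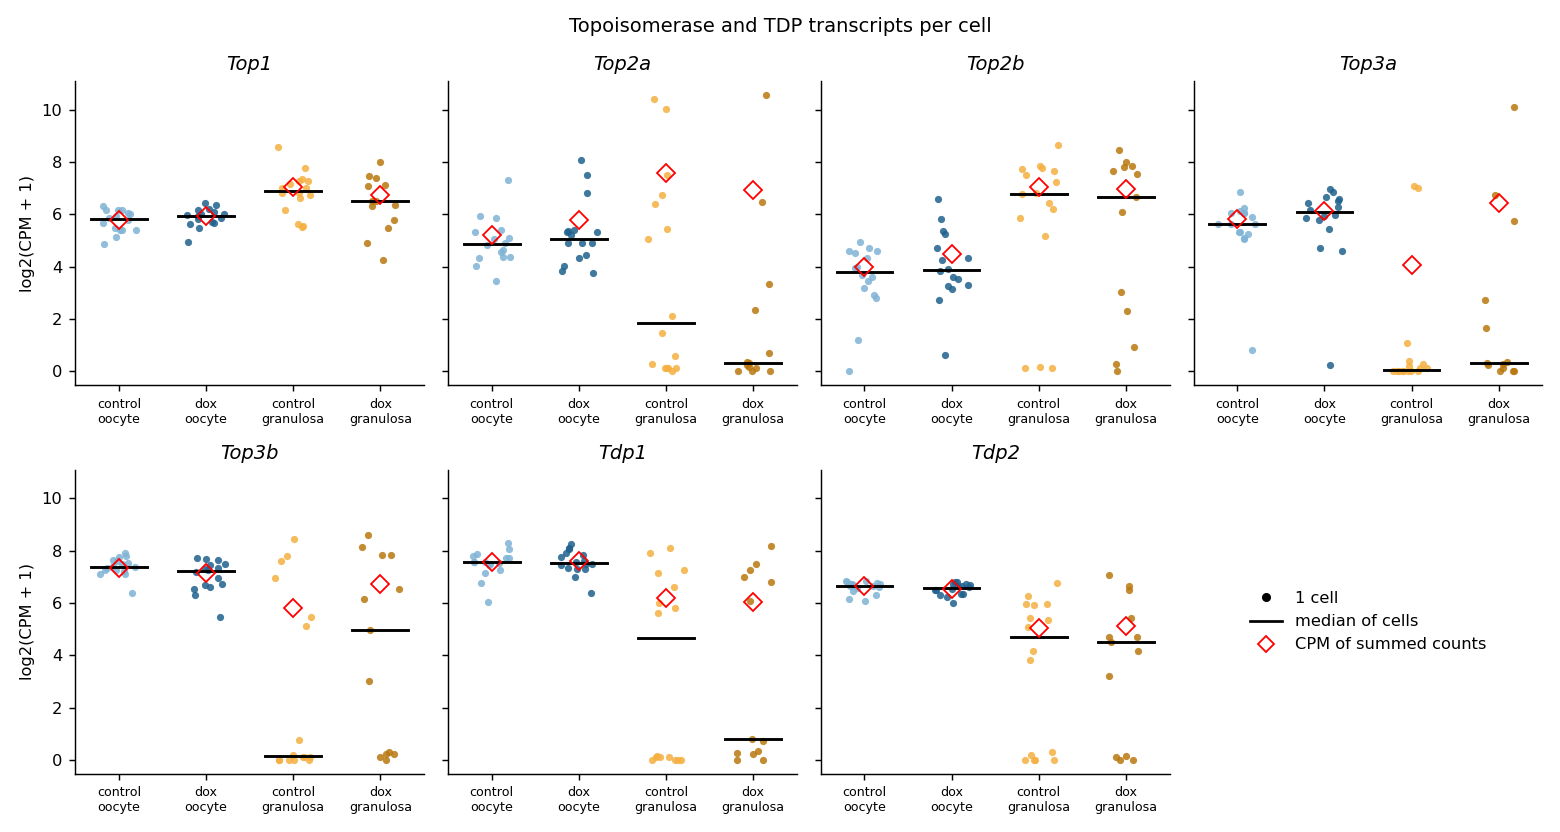
Level of each gene in each of the 61 cells, as log2(CPM + 1), for control and doxorubicin oocytes and granulosa cells. Points are cells, black lines are medians over cells, and red diamonds are the CPM of the summed counts of a group. Granulosa cells spread more widely than oocytes, with cells near 0 for all genes but Top1, and for Tdp2 most granulosa cells (14 of 16 control and 10 of 13 doxorubicin cells) lie below every oocyte.

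Top1, the type I enzyme that relaxes supercoils ahead of polymerases, lies on chromosome 2 (160645888 to 160722764, plus strand, GENCODE M21 on GRCm38). Its longest transcript has 21 exons. Single control oocytes had 28.2 to 79.3 CPM with a median of 55.8, and doxorubicin oocytes had 30.1 to 85.6 CPM with a median of 60.9. Granulosa cells ranged higher, from 45.0 to 377 CPM (median 119) in control and from 18.2 to 258 CPM (median 89.7) after doxorubicin. In 12 of 16 control and 7 of 13 doxorubicin granulosa cells Top1 was above every oocyte. It was the only one of the 7 genes with 5 reads in every one of the 61 cells.

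Top2a, the type II enzyme of dividing cells, lies on chromosome 11 (98992943 to 99024189, minus strand). Control oocytes had 10.0 to 157 CPM with a median of 28.1, and doxorubicin oocytes had 12.4 to 269 CPM with a median of 32.5. In granulosa cells the spread was far wider, from 0 to 1365 CPM (median 2.56) in control and from 0 to 1514 CPM (median 0.247) in doxorubicin cells. Below 10 CPM lay 9 of 16 control and 11 of 13 doxorubicin granulosa cells, all of them lower than the lowest oocyte. Only control granulosa cells 5 and 6 and doxorubicin granulosa cell 16 were above every oocyte. Control cells 5 and 6 held 86.1% of all Top2a counts of their group, and doxorubicin cell 16 held 93.0% of those of its group.

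Top2b, the type II enzyme that resting cells also make, lies on chromosome 14 (16365179 to 16435462, plus strand). It was low in oocytes, with 0 to 29.6 CPM in control (median 12.99) and 0.523 to 93.9 CPM after doxorubicin (median 13.6). Granulosa cells had 0.0779 to 395 CPM in control (median 109.9) and 0 to 355 CPM after doxorubicin (median 98.9). More than 50 CPM of Top2b were found in 12 of 16 control and 8 of 13 doxorubicin granulosa cells, against 2 of 16 doxorubicin oocytes. Exons of Rarb on the opposite strand share 1793 nucleotides with Top2b exons, or 12.3% of them, and whether the counting used strand is not given in the sources used here. Rarb was listed with 0, 0.582, 0 and 2.98 CPM in control oocytes, doxorubicin oocytes, control granulosa cells and doxorubicin granulosa cells.

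Top3a and Top3b are type IA enzymes that pass single strands and help to separate joined DNA molecules, and Top3b also acts on RNA. Top3a (chromosome 11, 60740058 to 60777365, minus strand) had a median of 48.3 CPM in control oocytes (0.762 to 115) and of 66.2 CPM in doxorubicin oocytes (0.184 to 123). Its median was near 0 in granulosa cells, at 0.0376 CPM in control (0 to 136) and 0.243 CPM after doxorubicin (0 to 1086). Control granulosa cells 15 and 6 held 99.2% of the Top3a counts of their group, and doxorubicin granulosa cell 1 held 85.8% of those of its own. Top3b (chromosome 16, 16870736 to 16892990, plus strand) had a median of 167 CPM in control oocytes (82.0 to 239) and of 149.6 CPM in doxorubicin oocytes (42.6 to 208). In granulosa cells its median was 0.117 CPM in control (0 to 349) and 30.3 CPM after doxorubicin (0 to 390.2). Both genes reached 5 reads in a minority of control granulosa cells, and in oocytes Top3a spread more widely than Top3b.

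Tdp1, which clears 3′ ends, lies on chromosome 12 (99884517 to 99955219, plus strand). Control oocytes had 65.5 to 313 CPM (median 188) and doxorubicin oocytes 81.9 to 303 CPM (median 184). Its granulosa medians were 24.4 CPM in control (0 to 272) and 0.730 CPM after doxorubicin (0 to 287). Tdp2, which clears 5′ ends left by type II enzymes, lies on chromosome 13 (24831679 to 24842153, plus strand). It had the narrowest spread of the 7 genes in oocytes, with 67.0 to 114 CPM in control (median 101) and 63.4 to 111 CPM after doxorubicin (median 93.2). Its coefficient of variation over cells was 0.149 in control and 0.151 in doxorubicin oocytes, and 1.70% and 0.677% of genes with at least 5 CPM varied as little. In granulosa cells Tdp2 had a median of 25.01 CPM in control (0 to 108) and of 21.7 CPM after doxorubicin (0 to 135). It was below the lowest oocyte in 14 of 16 control and 10 of 13 doxorubicin granulosa cells.

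Levels can be set against each other only per length, here as CPM per kilobase of the longest annotated transcript. In control oocytes the order was Tdp2 at 50.3, Tdp1 at 48.2, Top3b at 46.1, Top3a at 14.99, Top1 at 13.9, Top2a at 6.90 and Top2b at 1.45 CPM per kb. The leading 3 did not differ beyond their spread over cells, since Tdp2 was above Tdp1 in 10 of 16 cells and Tdp1 above Top3b in 7 of 16. Top3b was above Top3a in 16 of 16 cells, Top1 above Top2a in 15 of 16, and Top2a above Top2b in 15 of 16. Doxorubicin oocytes had nearly the same order, from Tdp1 at 48.8 and Tdp2 at 47.2 to Top2a at 10.2 and Top2b at 2.07 CPM per kb. Both phosphodiesterases thus stood above both type II enzymes in oocytes.

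In granulosa cells the order was different and less certain. Control cells gave Top2a at 36.4, Top1 at 34.3, Tdp1 at 18.1, Tdp2 at 16.5, Top3b at 15.8, Top2b at 12.8 and Top3a at 4.21 CPM per kb. Top2a led by its sum but was above Top1 in only 4 of 16 cells, and with coding length in place of transcript length Top1 came before Top2a. After doxorubicin the sums ran from Top3b at 29.8, Top1 at 27.5, Top2a at 23.3 and Top3a at 22.8 to Tdp2 at 17.1, Tdp1 at 16.5 and Top2b at 12.1 CPM per kb. Ranges over cells overlapped between all neighbours of this order, and with coding length Top2a moved from place 3 to place 6.

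Within single cells, a type II enzyme was read without Tdp2 in some granulosa cells. At least 5 reads of Top2a or Top2b with fewer than 5 reads of Tdp2 were found in 6 of 16 control and 3 of 13 doxorubicin granulosa cells. Tdp2 was not missed more than most genes, as it reached 5 reads in 62.5% of control and 69.2% of doxorubicin granulosa cells. The median gene with at least 5 CPM did so in 56.2% and 53.8%. Neither phosphodiesterase reached 5 reads in 4 of 16 control and 4 of 13 doxorubicin granulosa cells. In each of the 32 oocytes both Tdp1 and Tdp2 reached 5 reads. At this depth a missing read in 1 granulosa cell may be a missed molecule, and protein was not measured.

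Per length, Top2a made up most of the type II transcripts in oocytes. Its share of Top2a plus Top2b was 82.6% of the summed control oocytes and 83.2% of the summed doxorubicin oocytes, with medians over cells of 81.3% (44.4% to 100%) and 79.6% (58.9% to 99.3%). The sums of granulosa cells gave 74.0% in control and 65.7% after doxorubicin, but the cells themselves looked otherwise. Over the 15 control granulosa cells with at least 10 reads of the pair the median share of Top2a was 15.8%, and over 11 such doxorubicin cells it was 0.726%. In 7 of those 15 and 8 of those 11 cells Top2a made up less than 10%. Top2a was above 50% in 7 of those 15 and 2 of those 11 cells, against 15 of 16 control and 16 of 16 doxorubicin oocytes. With coding length the control figures were 5 of 15 granulosa cells and 13 of 16 oocytes.

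The 3 granulosa cells with the most Top2a also had the most cell-cycle transcripts, but some other cells with a high share of Top2a had few. The summed CPM of 25 cell-cycle genes was 14190 and 15148 in control granulosa cells 5 and 6 and 17253 in doxorubicin granulosa cell 16, against medians of 1316 and 1751 CPM in the 2 groups. Doxorubicin granulosa cell 14, in which Top2a made up 97.8% of the pair at 86.8 CPM, had a cell-cycle sum of 438 CPM, the lowest of its group. Control granulosa cells 12, 13 and 14, with Top2a shares of 99.8%, 59.4% and 60.9%, had sums of 1306, 607 and 1326 CPM. Control granulosa cells 16 and 9 went the other way, with shares of 99.96% and 66.8% and sums of 7233 and 3103 CPM. Top2b in cells 5, 6 and 16 was 226, 72.9 and 220.3 CPM, within the range of the other granulosa cells. Over the 29 granulosa cells Spearman's correlation of Top2a with the cell-cycle sum was 0.43, given as a description of cells that share a group. Without the libraries with more oocyte than granulosa markers it was 0.53 over 17 cells. By treatment, a split chosen after seeing the data, it was 0.76 over the 16 control and 0.0718 over the 13 doxorubicin cells. Doxorubicin granulosa cells 1 and 6 held the most oocyte markers of the granulosa libraries (46645 and 34937 CPM). Their cell-cycle sums were 3791 and 3982 CPM, with 0.104 and 0.185 CPM of Top2a. The part of oocyte transcripts in the cell-cycle sums was not tested. Top2b had a correlation of -0.16 with the cell-cycle sum over the 29 cells. Single oocytes held 5357 to 8069 CPM of the same cell-cycle genes, above both granulosa medians, and their Top2a lay far below that of the 3 granulosa cells.

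**Figure D2:**
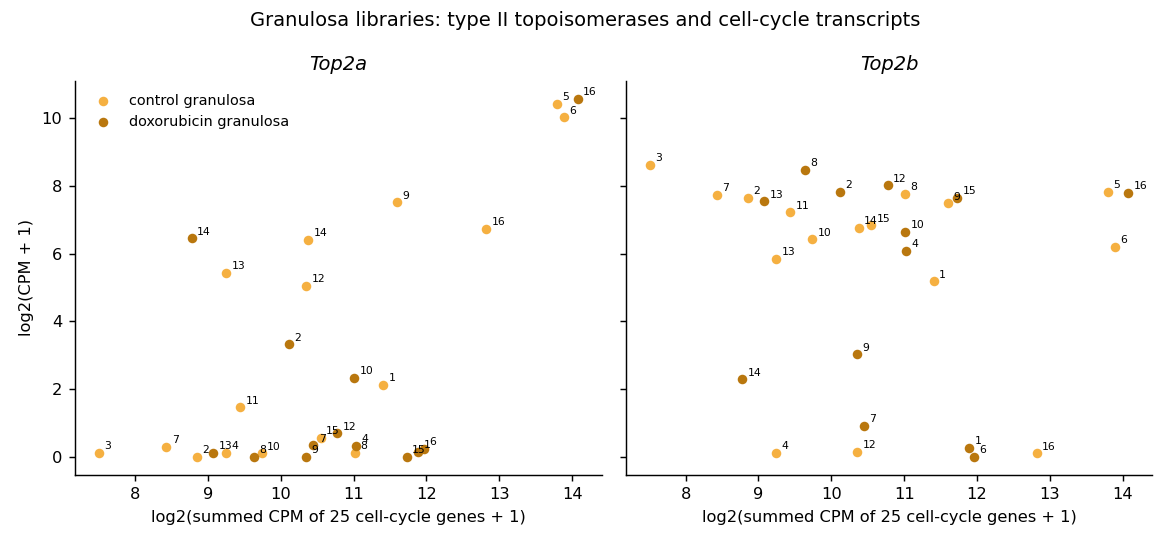
Top2a (left) and Top2b (right), as log2(CPM + 1), against the summed CPM of 25 cell-cycle genes in 16 control and 13 doxorubicin granulosa libraries, numbered by replicate. Control cells 5 and 6 and doxorubicin cell 16 lie at the upper right for Top2a, whereas Top2b runs from 0 to 395 CPM, with cells near 0 and cells above 200 CPM at low and at high cell-cycle sums.

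Control oocytes were compared with control granulosa cells to show which of the genes each cell type carries. All 7 genes were past 2-fold, as were 60.3% of the 12373 genes compared. Of the genes compared, 29% were higher and 31.3% lower in oocytes, against 4 higher and 3 lower of the 7. The 4 genes higher in oocytes were Top3a with a log2 ratio of 1.83 (56.1 against 15.8 CPM, interval 1.77 to 1.89), Tdp2 with 1.61 (98.5 against 32.2 CPM, 1.57 to 1.65), Top3b with 1.54 (162 against 55.6 CPM, 1.51 to 1.57) and Tdp1 with 1.42 (190.1 against 71.2 CPM, 1.39 to 1.45). Lower in oocytes were Top1 with -1.31 (53.5 against 132 CPM, -1.34 to -1.27), Top2a with -2.40 (36.0 against 189.9 CPM, -2.44 to -2.36) and Top2b with -3.14 (15.01 against 132 CPM, -3.19 to -3.08). All cells' ranges overlapped between the 2 groups, as they did for all but 3.7% of the genes compared.

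Single cells decided the size of several of these differences. Without control granulosa cell 6 the ratio of Top3a was 3.04. Top2a changed its sign with the way cells were combined, since the difference between the cells' median log2(CPM + 1) was 3.07 in favour of oocytes. It was -1.61 without control granulosa cell 5. With only the 10 granulosa cells that reached 5000 CPM of granulosa markers, the ratio of Top3b was 0.85, below 2-fold, and that of Top3a was 1.14. Over leaving out each cell in turn, Top1 lay between -1.38 and -1.08, Top2b between -3.29 and -2.91, Tdp1 between 1.31 and 1.78 and Tdp2 between 1.501 and 1.88, all past 2-fold.

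The same comparison after doxorubicin shares no cells with the one above. Past 2-fold were 4 of the 7 genes, against 55.8% of 12428 genes (27.6% higher and 28.2% lower in oocytes). Tdp1 and Tdp2 were higher in oocytes, with log2 ratios of 1.57 (192.6 against 65.1 CPM) and 1.46 (92.5 against 33.5 CPM). Top2b was lower with -2.55 (21.4 against 125 CPM) and Top2a with -1.19 (53.4 against 122 CPM). Without doxorubicin granulosa cell 16 the Top2a ratio was 2.53 in favour of oocytes, and between the cells' medians it was 4.74. Top1 had a ratio of -0.82, Top3b one of 0.41 and Top3a one of -0.33, and without doxorubicin granulosa cell 1 the ratio of Top3a was 2.39. With only the 7 granulosa cells that reached 5000 CPM of granulosa markers, Top3b was at -0.34 and Top3a at 2.37. Doxorubicin granulosa cells 7, 9 and 12 are among these 7, and each held more oocyte than granulosa markers. Leaving out all 8 granulosa libraries of that kind kept 5 of 13, and 2 of the 7 ratios changed sign. Cell ranges overlapped for all 7 genes, as they did for all but 1.74% of the genes compared.

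**Figure D3:**
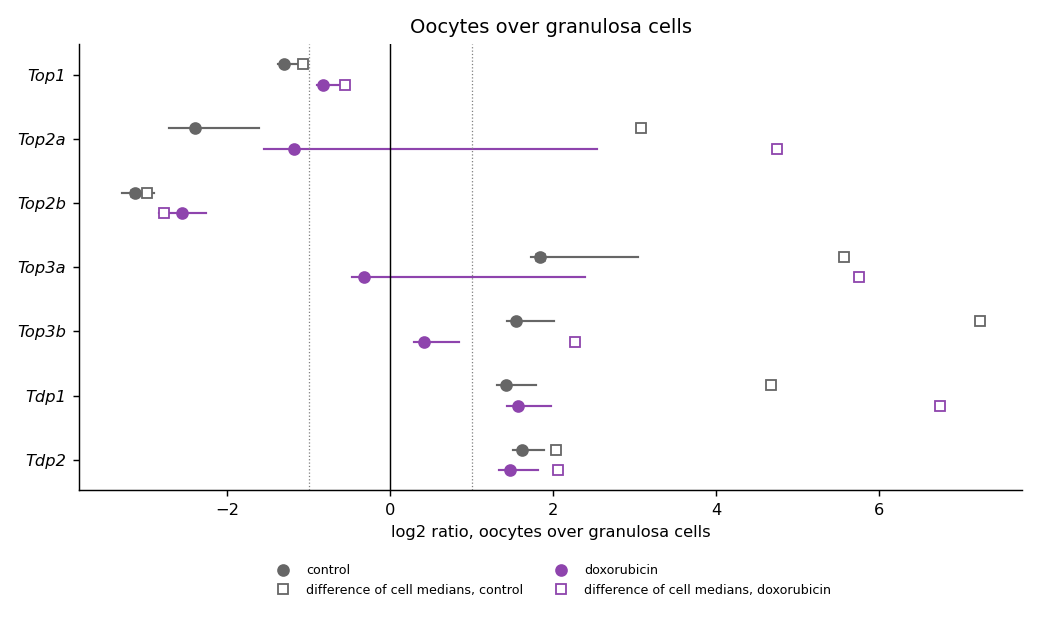
Log2 ratio of oocytes over granulosa cells for each gene in control and in doxorubicin cells. Filled circles are ratios of summed CPM, thick bars their 95% counting intervals, thin lines the range over leaving out each cell in turn, and open squares the difference between the cells' medians of log2(CPM + 1). Dotted lines mark 2-fold. For Top2a the circles lie at -2.40 and -1.19 and the squares at 3.07 and 4.74, on opposite sides of 0.

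In oocytes none of the 7 genes differed by 2-fold after doxorubicin, against 8.75% of the 11119 genes compared (6.3% higher and 2.45% lower). The median log2 ratio over the 7 genes was 0.17, and over all genes compared it was 0.01. Both type II genes had the largest ratios of the 7. Top2a had 53.4 CPM in doxorubicin against 36.0 CPM in control oocytes, a log2 ratio of 0.57 (interval 0.52 to 0.61), and Top2b had 21.4 against 15.01 CPM, a ratio of 0.51 (0.44 to 0.58). Top3a followed with 68.0 against 56.1 CPM (0.28, 0.24 to 0.32) and Top1 with 60.0 against 53.5 CPM (0.17, 0.13 to 0.20). Cells of the 2 groups overlapped for each of the 7 genes, and none of the 11119 genes compared separated the groups without overlap.

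**Figure D4:**
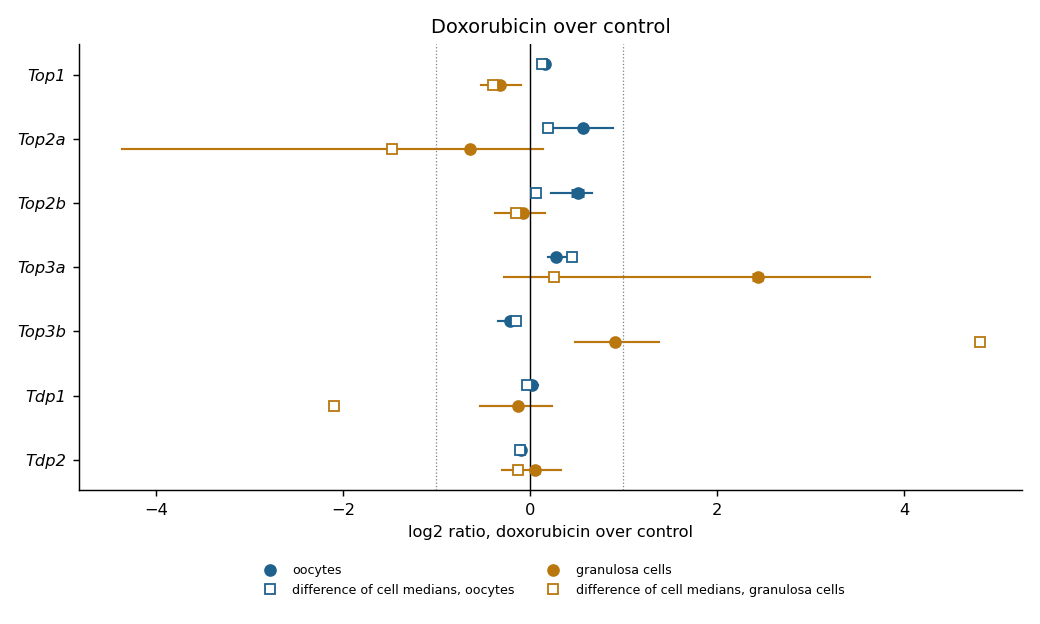
Log2 ratio of doxorubicin over control for each gene in oocytes and in granulosa cells. Filled circles are ratios of summed CPM, thick bars their 95% counting intervals (mostly hidden by the circles), thin lines the range over leaving out each cell in turn, and open squares the difference between the cells' medians of log2(CPM + 1). Dotted lines mark 2-fold. Oocyte circles all lie between -0.21 and 0.57, and Top3a in granulosa cells reaches 2.44 with a range from -0.28 to 3.64.

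The higher sums of Top2a and Top2b lay in a few doxorubicin oocytes. Doxorubicin oocytes 11, 9 and 12 had 269, 182 and 110.2 CPM of Top2a, and apart from control oocyte 4 with 157 CPM no other oocyte exceeded 100 CPM. For Top2b doxorubicin oocytes 9, 12, 10 and 11 were above every control oocyte, with 93.9, 55.2, 40.4 and 36.5 CPM. Oocytes 9, 11 and 12 are the 3 with the highest granulosa marker sums. Among oocytes under 200 CPM of granulosa markers, 11 doxorubicin and 10 control cells, the median of Top2a was 28.7 CPM in doxorubicin and 28.1 CPM in control cells, and that of Top2b was 10.4 against 9.05 CPM. Their summed ratios were -0.59 for Top2a, with control oocyte 4 among the control cells, and 0.36 for Top2b.

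Leaving out single cells moved both ratios, through different cells, and neither changed its sign. Leaving out doxorubicin oocyte 11 gave Top2a a ratio of 0.20, and leaving out control oocyte 4 gave 0.89. For Top2b the lowest value was 0.23, with doxorubicin oocyte 9 left out, and the highest 0.67, with control oocyte 16 left out. Over the 32 oocytes Spearman's correlation with the granulosa marker sum was 0.69 for Top2b and 0.18 for Top2a, and among control oocytes alone it was 0.67 and -0.16. Among doxorubicin oocytes alone it was 0.72 for Top2b and 0.45 for Top2a. Beyond these values, the part of granulosa transcripts in both ratios was not tested.

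**Figure D5:**
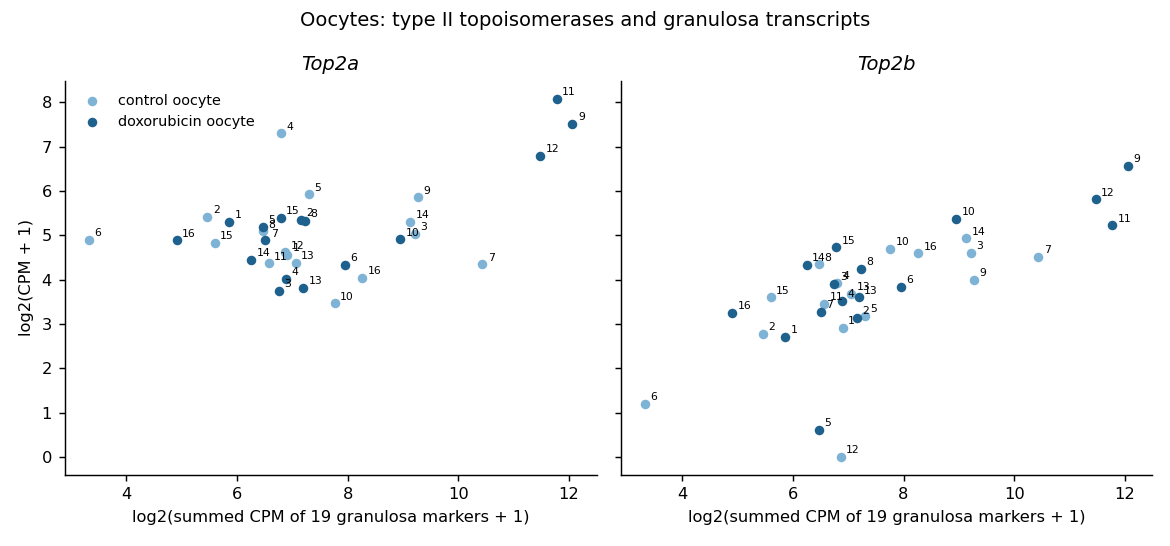
Top2a (left) and Top2b (right), as log2(CPM + 1), against the summed CPM of 19 granulosa markers in 16 control and 16 doxorubicin oocytes, numbered by replicate. Doxorubicin oocytes 9, 11 and 12 lie at the right with 2849 to 4278 CPM of the markers, and they are 3 of the 4 oocytes with the highest Top2a.

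The remaining genes stood closer to 0 in oocytes. Top3b was lower after doxorubicin, at 139 against 162 CPM with a ratio of -0.21 (-0.24 to -0.19), and doxorubicin oocytes were below every control oocyte in 2 of 16 cells. Its ratio lay between -0.34 (without control oocyte 16) and -0.16 (without doxorubicin oocyte 9), and was -0.35 among oocytes low in granulosa markers. Tdp2 had 92.5 against 98.5 CPM, a ratio of -0.09 (-0.12 to -0.06) that lay between -0.12 and -0.06 over leaving out each cell. Tdp1 had 192.6 against 190.1 CPM, and the interval of its ratio of 0.02 included 0 (-0.00 to 0.04). The ratio of Top1 was -0.03 among oocytes low in granulosa markers and 0.11 without control oocyte 16. That of Top3a was 0.22 among the same oocytes and lay between 0.19 and 0.38 over leaving out each cell.

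In granulosa cells 1 of the 7 genes differed by 2-fold after doxorubicin, and 40.6% of 12194 genes did so (20.6% higher and 20% lower). That gene was Top3a, with 85.3 CPM after doxorubicin against 15.8 CPM in control, a log2 ratio of 2.44 (interval 2.38 to 2.50). It rested on doxorubicin granulosa cell 1, which had 1086 CPM of Top3a where the highest of all 32 oocytes had 123 CPM. Without this cell the ratio was -0.28, and without control granulosa cell 6 it was 3.64. Cell 1 also had 46645 CPM of oocyte markers, the highest sum among granulosa libraries, and 2111 CPM of granulosa markers. With only the cells that reached 5000 CPM of granulosa markers, 7 doxorubicin and 10 control cells, the ratio was -0.95.

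Top3b came next, with 104.6 CPM after doxorubicin against 55.6 CPM in control and a ratio of 0.91 (0.88 to 0.95). Its value stayed above 0 over leaving out each cell, with a lowest value of 0.48 (doxorubicin granulosa cell 14 left out) and a highest of 1.38 (control granulosa cell 12 left out), and passed 2-fold in 11 of these 29 fits. At least 5 reads were found in 8 of 13 doxorubicin (61.5%, interval 31.6% to 86.1%) and 7 of 16 control cells (43.8%, 19.8% to 70.1%). These intervals count cells as independent, whereas each group is 1 sample, and the difference between the groups was not tested. Without the libraries whose oocyte marker sum exceeded the granulosa sum, which left 5 doxorubicin and 12 control cells, the ratio was 1.51. It was 0.97 with only the cells that reached 5000 CPM of granulosa markers.

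Both type II genes were lower by their sums in doxorubicin granulosa cells, but the direction depended on the cells kept. Top2a had 122 against 189.9 CPM, a ratio of -0.64 (-0.67 to -0.62). Its ratio was -4.37 without doxorubicin granulosa cell 16, 0.14 without control granulosa cell 5, and 0.36 without the libraries with more oocyte than granulosa markers. Top2b had 125 against 132 CPM, a ratio of -0.07 (-0.10 to -0.04), which lay between -0.37 and 0.16 over leaving out each cell and was 0.42 without those libraries.

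Top1 had 106 against 132 CPM in granulosa cells, a ratio of -0.32 (-0.35 to -0.29). It was below every control granulosa cell in 3 of 13 doxorubicin cells, and its ratio lay between -0.53 and -0.10 over leaving out each cell. Without the libraries with more oocyte than granulosa markers the ratio of Top1 was 0.09. Tdp1 had 65.1 against 71.2 CPM, a ratio of -0.13 (-0.17 to -0.09), which was -0.54 when doxorubicin granulosa cell 12 was left out and 0.24 when control granulosa cell 10 was. Tdp2 had 33.5 against 32.2 CPM, a ratio of 0.06 (0.00 to 0.11), between -0.30 and 0.33 over leaving out each cell and -0.50 without the libraries just named. Oocyte marker sums were higher in doxorubicin than in control granulosa libraries (medians of 9947 and 1803 CPM), and their part in these ratios was not tested beyond the values without such libraries.

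Other genes that act on trapped topoisomerases were taken from lists written by function. Type IA enzymes work with partners, and those listed were Blm, Rmi1, Rmi2 and Tdrd3. Of 4 partners compared between control oocytes and control granulosa cells 3 were more than 2-fold higher in oocytes and 0 lower, where 29% of all genes were higher and 31.3% lower. Their median log2 ratio was 1.41, against -0.03 over all genes. Blm, a helicase that works with Top3a, had 25.2 against 3.72 CPM, a ratio of 2.76 that was 3.40 without control granulosa cell 15. Rmi2 had a ratio of 1.73 (2.82 without control granulosa cell 1). Tdrd3, the partner of Top3b, had 161 against 75.6 CPM, a ratio of 1.09 that was 0.99 without control granulosa cell 13. After doxorubicin 3 of 3 compared were higher in oocytes (27.6% of all genes were), Blm by 2.90 (31.1 against 4.16 CPM), Rmi1 by 1.54 and Tdrd3 by 1.49. Here and in the lists that follow, Rmi1, Rmi2, Tdrd3, Sprtn, Fam111a, Rbbp8, Vcp, Zfp451, Mre11a, Pias4 and Lig1 were named after their values were seen, as were Ddi2, Prkdc and Dclre1c for the drug in granulosa cells.

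The drug moved none of the 4 partners past 2-fold in oocytes (median -0.07), where 8.75% of all genes were past 2-fold. In granulosa cells 0 of 2 compared were higher and 1 was lower, where 20.6% of all genes were higher and 20% lower. The lower gene was Rmi1 with 14.1 against 44.4 CPM and a ratio of -1.65 that was -2.60 without doxorubicin granulosa cell 8. The mitochondrial topoisomerase Top1mt, named after its values were seen, had 38.8 CPM in doxorubicin against 17.7 CPM in control oocytes, a ratio of 1.13 that was 0.79 without doxorubicin oocyte 4. In control granulosa cells Top1mt had 1.55 CPM, and control oocytes were higher by 3.51, or by 9.95 without control granulosa cell 3. Top1mt had 38.6 CPM in doxorubicin granulosa cells, a ratio of 4.64 over control that was 3.26 without doxorubicin granulosa cell 4 and 11.07 without control granulosa cell 3. The part of oocyte transcripts in this granulosa ratio was not tested.

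Proteases, nucleases and SUMO or ubiquitin ligases that strip trapped enzymes from DNA made up a list of 13 genes. In oocytes 0 of 11 compared were past 2-fold after doxorubicin (median 0.04), where 8.75% of all genes were. In granulosa cells 0 of 13 were higher and 4 lower (median -0.12), where 20.6% of all genes were higher and 20% lower. The 4 were Fam111a with -2.26, Sprtn with -2.07, Rbbp8 with -1.78 and Ddi2 with -1.42, and the values moved with single cells. Without control granulosa cell 2 Sprtn was at 0.11, without cell 8 Rbbp8 was at -0.71, and without cell 7 Ddi2 was at -0.69. Fam111a was at -1.12 without control granulosa cell 5 and at -8.77 without doxorubicin granulosa cell 15. Between control oocytes and granulosa cells 4 of 13 were higher in oocytes (Ddi2, Rad50, Mre11a and Pias4) and 1 lower, Fam111a with -3.81 (median 0.60). That number higher is close to the 29% of all genes. Rad50, of the nuclease complex that trims blocked ends, had 239.7 against 64.0 CPM (1.90), and Ddi2, a protease, had 90.1 against 18.8 CPM (2.26). After doxorubicin 5 of 11 were higher in oocytes (27.6% of all genes were) and 1 lower, Vcp with -1.04 (-0.79 without doxorubicin granulosa cell 8), with Ddi2 at 3.26 (5.08 without doxorubicin granulosa cell 13) and Rad50 at 1.84. Zfp451, a SUMO ligase that works with Tdp2, had 157, 153, 104 and 95.5 CPM in control oocytes, doxorubicin oocytes, control granulosa cells and doxorubicin granulosa cells.

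Single-strand break repair follows the removal of Top1. Of 8 genes none was past 2-fold after doxorubicin in oocytes (median -0.00), where 8.75% of all genes were. In granulosa cells 0 were higher and 2 lower (median -0.16), where 20.6% of all genes were higher and 20% lower. Among the lower genes the ligase Lig1 had a ratio of -1.16 that was -0.54 without control granulosa cell 9 and -1.83 without doxorubicin granulosa cell 9. The scaffold Xrcc1 had 635 CPM in control oocytes and 173 CPM in control granulosa cells, a ratio of 1.87. After doxorubicin that ratio was 1.84 (553 against 154 CPM). In each treatment 3 of the 8 genes were higher in oocytes and 0 lower, where 29% of all genes were higher in control and 27.6% after doxorubicin, with medians of 0.79 in control and 0.76 after doxorubicin.

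End joining seals the double-strand breaks that a removed type II enzyme leaves. In oocytes 1 of 8 genes was past 2-fold after doxorubicin (median 0.09), where 8.75% of all genes were. It was Nhej1, a ligation factor named after its values were seen, with 59.6 against 28.6 CPM and a ratio of 1.06 that was 0.87 without doxorubicin oocyte 3. In granulosa cells 1 of 7 was higher and 3 lower (median -0.61), where 20.6% of all genes were higher and 20% lower. Poll, a gap-filling polymerase, had 92.2 against 2.17 CPM, a ratio of 5.41 (interval 5.26 to 5.56) that was 4.55 without doxorubicin granulosa cell 4 and 6.25 without control granulosa cell 7. Control oocytes had 41.9 CPM of Poll, and the part of oocyte transcripts in its granulosa ratio was not tested. Nhej1 had 3 counts in all doxorubicin granulosa cells against 16.4 CPM in control, a ratio of -9.61 with a counting interval of -11.89 to -8.07. In control, 8 of 16 granulosa cells reached 5 reads of Nhej1. The other lower genes were Dclre1c with -7.65 and Prkdc with -2.46, which was -0.97 without control granulosa cell 16. Neither met every condition of the naming rule given below, and the Dclre1c ratio rests on 15 counts in all doxorubicin granulosa cells.

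End joining was also compared between the cell types. Of 8 compared in control 5 were higher and 0 lower (median 1.25), and of 7 compared after doxorubicin 6 were higher and 0 lower (median 1.58). Over all genes 29% were higher and 31.3% lower in control, and 27.6% higher and 28.2% lower after doxorubicin. Control ratios were 4.27 for Poll, 2.14 for Lig4 (4.57 without control granulosa cell 12) and 3.48 without control granulosa cell 16 for Prkdc, the catalytic subunit of the DNA-dependent kinase, which had 65.5 against 16.4 CPM with all cells. Doxorubicin ratios were 11.47 for Nhej1 (interval 9.93 to 13.75), 7.92 for the nuclease gene Dclre1c, 4.27 for Prkdc and 1.58 for Xrcc6, which encodes a subunit of the end-binding Ku complex. Dclre1c had 15 counts in all doxorubicin granulosa cells.

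The genes whose levels went most like those of each topoisomerase were sought over cells by Spearman's correlation, as a description of cells that share groups and libraries. Over 29 granulosa cells and 3528 genes, Top2a went most like Rfc4 (0.75), a subunit of the replication clamp loader, Smc4 (0.72), a subunit of condensin, and Gm10925 (0.67). Top2b had lower values there, led by Hmg20b (0.62). Tdp2 went most like Gipc1 (0.69), Tdp1 like Rock2 (0.66), Top3b like Scd2 (0.65), Top1 like Fam136a (0.65) and Top3a like Zfyve21 (0.60). Among the 7 genes themselves the highest value in granulosa cells was that of Tdp1 with Tdp2, 0.61.

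Over 32 oocytes and 10315 genes the nearest genes were others. Top2a went most like Fgfr1op2 (0.78) and Top2b like Serpinb6a (0.75), Cnn3 (0.74) and Tsc22d1 (0.73). Top1 went most like Dtymk (0.76), Acaa2 (0.70) and Ptma (0.68). The leading genes were Cttnbp2nl for Tdp1 (0.69), Senp3 for Top3a (0.67), Lekr1 for Tdp2 (0.64) and Oma1 for Top3b (0.64). Between members the highest value in oocytes was 0.51, for Top1 with Top2a, and Tdp1 with Tdp2 had -0.05.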

How the data were processed

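The authors deposited 1 table with an estimated count for each gene in each cell. Of its nonzero values 27.1% are not whole at a tolerance of 0.001. Per the submitters' processing notes, Partek, Bowtie2, HISAT2 and DESeq2 were used with build mm10, in roles that are not given in the sources used here. Per the labels, all cells carry 1 batch label. A further 22 rows have date-like names and 0.144% of the counts.

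Counts were rounded and summed by group. CPM used the total of all gene rows. A group under 3 counts was set to 3. Log2 ratios have exact conditional binomial (Clopper-Pearson) 95% intervals, and shares of cells exact binomial ones. No doublet caller was run and no cell was removed. The 7 genes and all gene lists were chosen with earlier results of these data known. All 7 genes are named in each comparison. Of the pathway lists, up to 8 genes per direction are named that passed 2-fold with at least 5 CPM in the higher group, at least 5 reads in 50% of its cells and 2-fold kept over leaving out each cell. Likeness used the 3 highest correlations among genes with at least 5 reads in 75% of cells. The code was tested on simulated data. Positions and lengths come from GENCODE M21, promoters from RefSeq. Alternatives were other ways of combining cells, edgeR TMM and DESeq2 scaling, other filters, and other choices of cells. Python 3.11.15, numpy 2.4.6, pandas 2.3.3, scipy 1.17.1, matplotlib 3.10.9, R 4.3.3, edgeR 4.0.16 and DESeq2 1.42.0 were used. A result that the naming rule would give is not reported here.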

Additional observations from a re-analysis of the deposited data

Results flagged for a closer look

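Top1 and Top3b had log2 ratios of doxorubicin over control with opposite signs in the 2 cell types, each with a counting interval that leaves out 0 and with the same sign over leaving out each cell in turn. Top1 had a ratio of 0.17 in oocytes and of -0.32 in granulosa cells. With only oocytes that held under 200 CPM of granulosa markers Top1 was at -0.03, and it was at 0.09 in granulosa cells without the libraries with more oocyte than granulosa markers. Top3b had a ratio of -0.21 in oocytes and of 0.91 in granulosa cells, and under the same choices of cells these were -0.35 and 1.51. Each group is 1 sample, so neither difference between the cell types was tested.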

How the results depend on the processing

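edgeR TMM factors and DESeq2 size factors changed neither the sign of any of the 28 member ratios nor a count of genes past 2-fold among the 7. Over leaving out each cell, the number past 2-fold was 0 to 0 in oocytes and 0 to 2 in granulosa cells after doxorubicin, and 7 to 7 in control and 4 to 5 in doxorubicin cells between cell types. In granulosa cells it was 3 by the cells' medians and 0 with only the cells that reached 5000 CPM of granulosa markers. Top3a in granulosa cells was at -0.95 in those cells, and between -0.28 (without doxorubicin granulosa cell 1) and 3.64 over leaving out each cell. Top2a between cell types was at 3.07 in control and 4.74 after doxorubicin by the cells' medians, and after doxorubicin between -1.55 and 2.53 (without doxorubicin granulosa cell 16) over leaving out each cell. Genes past 2-fold in oocytes numbered 973, and 2501 with a filter of 1 CPM and 314 with one of 20 CPM. In granulosa cells they numbered 4951, and 2991 with 20 CPM. The share of Top2a in both type II genes was 71.7% and 72.5% in control and doxorubicin oocytes and 60.3% and 50.5% in granulosa cells by coding length, and 70.6%, 71.4%, 59.0% and 49.2% without length. The correlation of Top2a with the cell-cycle sum in granulosa cells was 0.43 by Spearman and 0.59 by Pearson on log2(CPM + 1). Without the libraries with more oocyte than granulosa markers Spearman's value was 0.53 over 17 cells. Chosen after seeing the data, splits by treatment gave 0.76 in control and 0.0718 after doxorubicin. The causes were not tested. No paired analysis was possible because each group is 1 sample and no result comes from a test.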
